A study of Mus musculus with 14 samples.

Results

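Lymphoid zone chemokines, their receptors and the lymphotoxin ligands were followed as 8 listed genes in 14 mouse tissue sections. The genes were taken by symbol alone: Ccl19, Ccl21a, Cxcl13, Cxcr5, Ccr7, Madcam1, Lta and Ltb. Of the 8, 6 had counts and are among the 19465 genes of the tables for the C1qa cross, whereas Ccl19 and Ccl21a are listed at 0 where they are listed at all. The study used the Visium assay, in which pairs of gene-specific probes are read out at barcoded spots under a formalin-fixed section, and each spot covers several cells. Of the sections, 6 came from purchased wild-type C57BL/6 mice, 1 of each kind: fetal liver at embryonic day 13.5, fetal liver at embryonic day 14.5, bone marrow at postnatal day 8, bone marrow at 89 weeks (cryosectioned, without decalcification), bone marrow at 6 months (kept in 0.5 M EDTA for 5 days to remove calcium) and adult spleen. The other 8 came from a cross of mice heterozygous for a C1qa deletion. They are wild-type and knockout fetal livers at embryonic day 14.5 and wild-type and knockout adult spleens, 2 sections of each. The knockout is germline, so every cell of a knockout animal carries it. The 3-month age of the cross spleens is that of the labels, and the study's methods give 2 months for normal spleens.

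Secondary lymphoid tissue keeps B cells and T cells in separate zones by means of chemokines made by stromal cells. Follicular dendritic and other follicular stromal cells make Cxcl13, which draws cells carrying Cxcr5, chiefly B cells, into follicles. Fibroblastic reticular cells of the T zone make Ccl19 and Ccl21a, which draw cells carrying Ccr7, chiefly naive T cells and mature dendritic cells. Lymphotoxin alpha and lymphotoxin beta, encoded by Lta and Ltb, form a membrane complex on lymphocytes that signals through the lymphotoxin beta receptor on stroma, partly by the non-canonical NF-kappa B route, and keeps up production of Cxcl13. Madcam1 encodes the mucosal addressin, a ligand for the integrin alpha4 beta7, which in the spleen is known from the cells lining the marginal sinus at the rim of the white pulp.

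Promoter sequences are shown for Cxcl13, Ltb and Madcam1, a chemokine, a lymphotoxin ligand and an adhesion molecule whose levels were all higher in lymphocyte-rich spots. The windows run from 250 bases before to 50 bases after the start of transcription, in GRCm38.p6 from RefSeq, and 6 of the 8 genes matched the promoter table. In the Cxcl13 window, chr5:95956689-95956988 on the plus strand, capitals mark the only match to TATAAA.
Cxcl13: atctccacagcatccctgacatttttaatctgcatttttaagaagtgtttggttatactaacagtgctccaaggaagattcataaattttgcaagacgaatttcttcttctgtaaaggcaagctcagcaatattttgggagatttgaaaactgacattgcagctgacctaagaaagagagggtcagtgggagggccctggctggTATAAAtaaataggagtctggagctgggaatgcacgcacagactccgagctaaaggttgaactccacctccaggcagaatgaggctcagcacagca
In the Ltb window, chr17:35194257-35194556 on the plus strand, capitals mark 1 match to the 10-letter NF-kappa B consensus, which lies on the reverse strand at bases 164 to 173.
Ltb: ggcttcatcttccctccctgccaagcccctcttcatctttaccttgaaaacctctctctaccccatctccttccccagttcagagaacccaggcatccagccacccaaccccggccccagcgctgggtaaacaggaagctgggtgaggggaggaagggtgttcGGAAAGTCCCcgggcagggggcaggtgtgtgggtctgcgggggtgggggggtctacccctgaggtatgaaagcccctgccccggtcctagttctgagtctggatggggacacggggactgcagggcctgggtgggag
In the Madcam1 window, chr10:79664309-79664608 on the plus strand, capitals mark 2 matches to that consensus, both on the reverse strand, at bases 168 to 177 and 181 to 190.
Madcam1: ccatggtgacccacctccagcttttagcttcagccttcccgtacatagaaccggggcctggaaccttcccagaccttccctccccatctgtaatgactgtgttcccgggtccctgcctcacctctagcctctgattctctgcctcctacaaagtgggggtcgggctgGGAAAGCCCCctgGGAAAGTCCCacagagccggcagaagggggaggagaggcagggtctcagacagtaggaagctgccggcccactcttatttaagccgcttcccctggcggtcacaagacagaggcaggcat
Both strands were searched, and the capitals show the plus strand. Of all 32851 promoter windows of this length, 4.51% held an NF-kappa B match and 13.6% held TATAAA. The windows of Ccl19, Ccl21a, Cxcl13 and Lta held no NF-kappa B match, Lta held 1 TATAAA, and none of the 6 held TGACTCA, which 5.2% of all windows held. A match describes the letters in the window and is no measurement of binding.

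Counts were taken over those spots over tissue that detected 1000 genes or more, and given as CPM (each section's counts scaled to the same total) over all genes in those spots. The passing spots held between 37167 counts, in 15 spots of the EDTA-treated marrow, and 56182915 counts, in the purchased fetal liver of day 14.5. Among the 5 spleens the total ran from 4225805 in wild-type spleen 2, with a median of 2293.5 per spot, to 19934060 in wild-type spleen 1, with 13937.5 per spot. The targeted gene followed the labels: C1qa, which encodes a chain of complement C1q, had 218 CPM in one wild-type spleen and 269 CPM in the other against 2 counts and 1 count in the knockout spleens, and 95.9 and 25.8 CPM in the wild-type fetal livers against 1 count in each knockout. All 8 B-cell and all 8 T-cell marker genes were detected in every spleen, at 5057 to 6731 and 766 to 1648 summed CPM. As a guide to signal from probes in tissue that does not use the gene, the 970 olfactory receptor genes had a 90th percentile of 3.83 to 8.68 CPM in the cross spleens, 0.458 CPM in the purchased spleen and 0.891 to 5.23 CPM in the cross fetal livers. Probes differ in efficiency, so levels were compared between sections and spots and not between genes.

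Ccl19 and Ccl21a could not be assessed. Each has 2 identifiers in the tables of the purchased sections, and all were at 0 counts in every one, the spleen included, where the T-cell genes Cd3e and Lck had 3234 and 2876 counts. Both genes belong to a family with near-identical copies, and no level or difference is given for them.

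The other 6 genes had higher CPM in every spleen than in any fetal liver, though Cxcl13 was low in the wild-type spleens of the cross. Cxcl13, the follicular chemokine, had 120 CPM in the purchased spleen, 14.1 CPM in wild-type spleen 1, 6.39 CPM in wild-type spleen 2, 19.7 CPM in knockout spleen 1 and 30.4 CPM in knockout spleen 2, the last 4 resting on 282, 27, 209 and 555 counts. The purchased spleen thus stood far above the 4 others, and the 6.39 CPM of wild-type spleen 2 lies within the range of the olfactory receptor genes in that section, whose 90th percentile was 7.57 CPM. Cxcl13 was seen in 53.4% of the spots of the purchased spleen and in 1.64% to 29.5% of those of the cross spleens.

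Both receptors varied less between spleens. Cxcr5 had 271 CPM in the purchased spleen, 287 CPM in wild-type spleen 1, 243 CPM in wild-type spleen 2, 256 CPM in knockout spleen 1 and 208 CPM in knockout spleen 2. Ccr7 had 192 CPM in the purchased spleen, 166 CPM in wild-type spleen 1, 215 CPM in wild-type spleen 2, 166 CPM in knockout spleen 1 and 199 CPM in knockout spleen 2. For neither gene did the 2 genotypes separate, and the purchased spleen lay inside the range of the others.

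Madcam1 had 24.7 CPM in the purchased spleen, 23.8 CPM in wild-type spleen 1, 25.6 CPM in wild-type spleen 2, 22.3 CPM in knockout spleen 1 and 15.9 CPM in knockout spleen 2. Lta had 35.1 CPM in the purchased spleen, 23.0 CPM in wild-type spleen 1, 24.1 CPM in wild-type spleen 2, 26.3 CPM in knockout spleen 1 and 26.7 CPM in knockout spleen 2. Ltb had 698 CPM in the purchased spleen, 1103 CPM in wild-type spleen 1, 1283 CPM in wild-type spleen 2, 1272 CPM in knockout spleen 1 and 1076 CPM in knockout spleen 2. For Lta both knockout values lay above both wild-type values, for Madcam1 both knockout values lay below both wild-type values, and for Ltb the genotypes overlapped. Neither Lta nor Madcam1 passed the test between genotypes given below. With so few sections many genes can separate in this way, and their share was not computed.

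**Figure D1:**
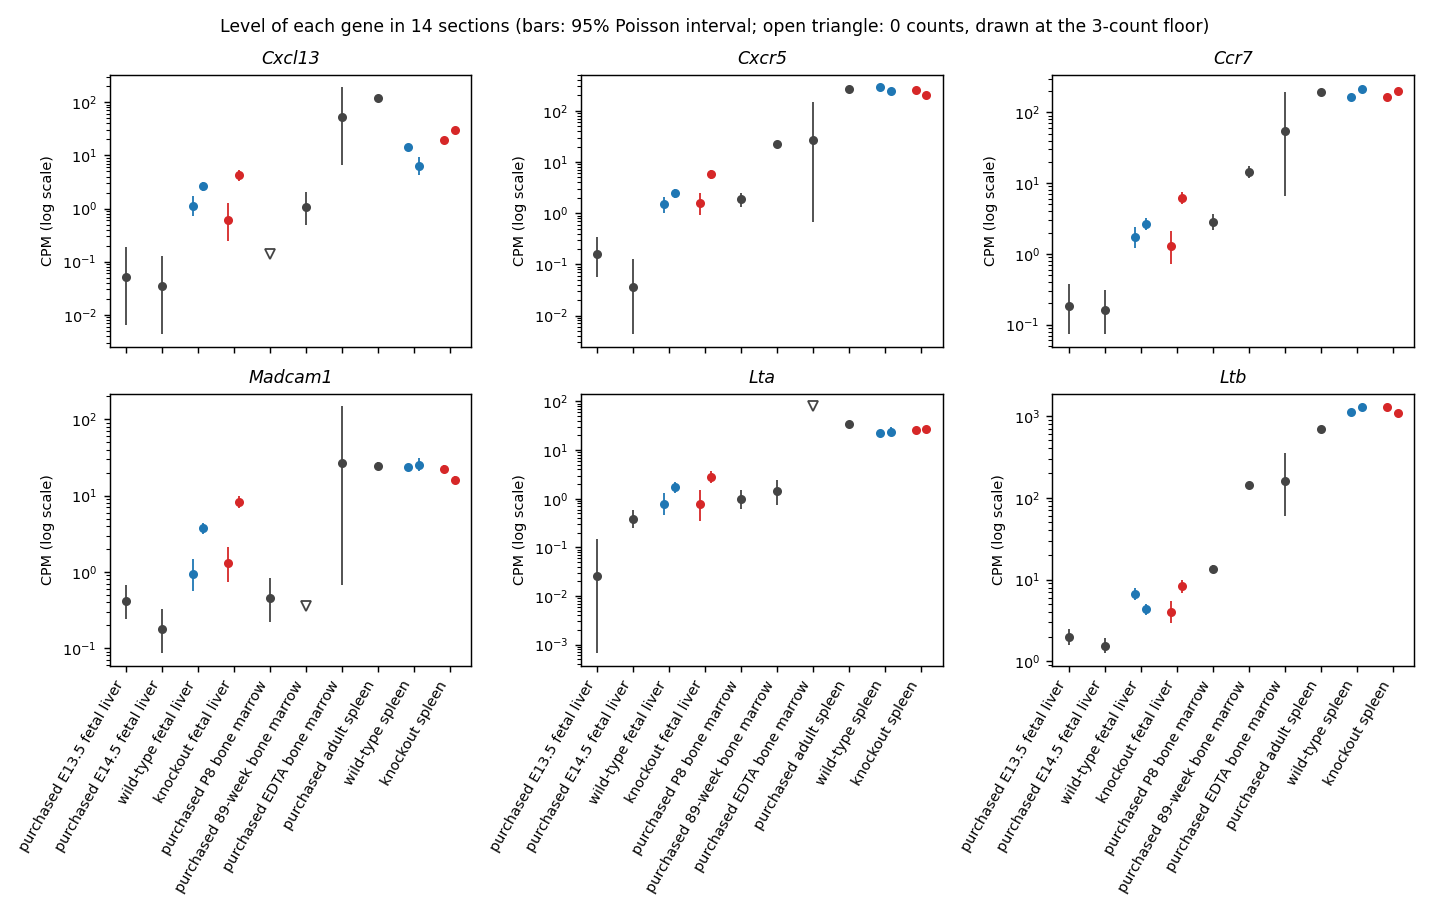
Level of Cxcl13, Cxcr5, Ccr7, Madcam1, Lta and Ltb in each of the 14 sections, in CPM on a log scale, 1 point per section, with bars for the 95% Poisson interval, which covers counting error only. The 5 spleens stand above the fetal livers for every gene, Cxcl13 is spread most between spleens (6.39 to 120 CPM), and the EDTA-treated marrow has wide bars because it rests on 0 to 6 counts per gene.

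After the spleens, the 89-week marrow came next in order for Ltb, Cxcr5 and Ccr7, with the EDTA-treated marrow set aside for its few counts. In this section Ltb had 144 CPM, Cxcr5 22.1 CPM, Ccr7 14.5 CPM, Lta 1.42 CPM and Cxcl13 1.07 CPM, and Madcam1 had 0 counts, which allows up to 0.356 CPM. The marrow of postnatal day 8 had 13.5 CPM of Ltb, 2.82 CPM of Ccr7, 1.87 CPM of Cxcr5, 1.00 CPM of Lta and 0.455 CPM of Madcam1, with no count of Cxcl13, which allows up to 0.137 CPM. Each marrow is a single section, the 2 differ in age, and the B-cell markers summed to 718 and 215 CPM in them. In the EDTA-treated marrow the counts were 6 for Ltb, 2 for Ccr7, 2 for Cxcl13, 1 for Cxcr5, 1 for Madcam1 and 0 for Lta, too few for a level.

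Levels were low in fetal liver, which has no follicles or T zones. In the purchased fetal livers of day 13.5 and day 14.5 Ltb had 2.01 and 1.57 CPM, and none of the other 5 genes passed 0.417 CPM. In the cross, Ltb had 6.68 and 4.37 CPM in the wild-type fetal livers and 4.07 and 8.27 CPM in the knockout fetal livers. The other 5 genes ranged from 0.606 to 3.74 CPM in 3 of those sections and from 2.85 to 8.27 CPM in knockout fetal liver 4, where the olfactory receptor genes had a median of 3.57 CPM. In that section Lta and Cxcl13 lay below the 90th percentile of the olfactory receptor genes, 5.23 CPM, and Cxcr5, Ccr7 and Madcam1 above it.

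Within the cross, wild-type spleen was compared with wild-type fetal liver, 2 sections each, with edgeR and Benjamini-Hochberg adjustment over 19180 genes. The 2 tissues differ in age and in nearly all of their cells, and 48.0% of genes passed in either direction and 25.1% were higher in spleen. Of the 6 genes 5 were higher in spleen: Ltb by 6.68 on the log2 scale (SE 0.60, adjusted p 9.9e-04), Cxcr5 by 6.17 (SE 0.39, adjusted p 5.8e-04), Ccr7 by 5.53 (SE 0.47, adjusted p 8.3e-04), Lta by 3.36 (SE 0.40, adjusted p 0.0019) and Madcam1 by 2.61 (SE 0.60, adjusted p 0.0126). Cxcl13 differed by 1.61 (SE 0.64, adjusted p 0.067) and did not pass. Madcam1 no longer passed without wild-type spleen 1 (adjusted p 0.061), without wild-type spleen 2 (0.065) or between the knockout tissues (log2 difference 1.79, adjusted p 0.072). Cxcl13 passed between the knockout tissues, where the log2 difference was 3.16 (adjusted p 0.015), with upper-quartile factors (2.28, adjusted p 0.040) and without either knockout fetal liver, sections that enter only through the shared spread (adjusted p 0.035). Upper-quartile factors also moved the share of calls that were higher in spleen from 52.4% to 74.1%, and the median of all genes from 0.037 to 0.71. In whole sections, fewer cells of a type and less RNA per cell cannot be told apart.

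Inside the spleen, spots were sorted by genes that are not among the 8. T-rich spots were the passing spots in the top 25% of a section for the share of counts from Cd3e and Lck, which mark T cells, but not for that from Cd79a and Ms4a1, which mark B cells, and B-rich spots were the reverse. Lymphocyte-poor spots were at or below the median for both. Each of the 5 spleens gave 217 to 374 spots of either class and 258 to 414 lymphocyte-poor spots, and counts were summed per section and class so that the section stayed the replicate.

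**Figure D2:**
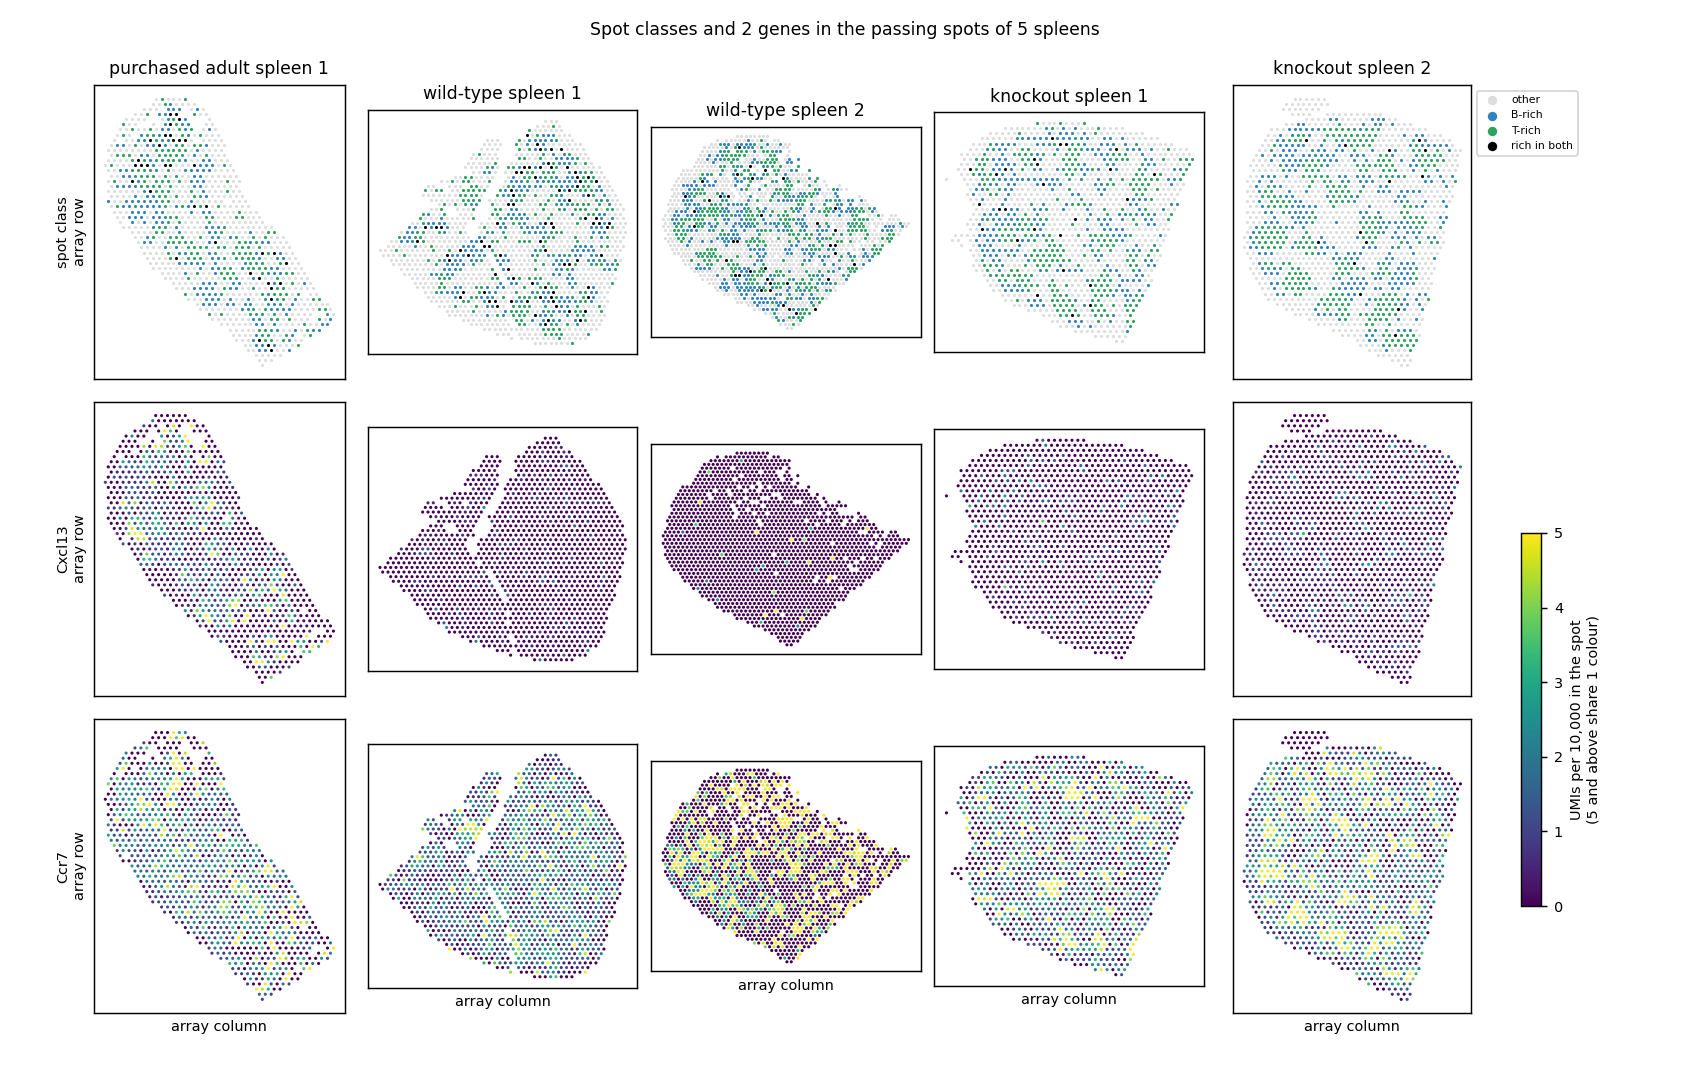
Position of every passing spot in the 5 spleens on the array, with spot class in the top row and the counts of Cxcl13 and Ccr7 below. B-rich and T-rich spots lie in patches that repeat across each section, and Cxcl13 is sparse in wild-type spleen 2, where it was seen in 1.64% of spots.

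All 6 genes rose in lymphocyte-rich spots (top 25% for B or T genes) against lymphocyte-poor spots, a comparison in which 24.2% of 18493 genes passed and 14.3% were higher in lymphocyte-rich spots. Lta rose by 1.38 (SE 0.16, adjusted p 1.1e-05), Cxcl13 by 1.26 (SE 0.20, adjusted p 3.0e-04), Madcam1 by 1.12 (SE 0.21, adjusted p 0.0011), Cxcr5 by 0.89 (SE 0.11, adjusted p 3.2e-05), Ccr7 by 0.78 (SE 0.09, adjusted p 9.6e-06) and Ltb by 0.78 (SE 0.12, adjusted p 1.7e-04), all on the log2 scale in edgeR with the section as a block (n = 5). Lymphocyte-rich spots hold more lymphocytes by construction, so for genes that lymphocytes themselves express, such as Cxcr5, Ccr7, Lta and Ltb, the class and the gene are not separate. Cxcl13 and Madcam1 are chiefly stromal genes. Madcam1 had 32.8 CPM in lymphocyte-rich and 6.91 CPM in lymphocyte-poor spots of the purchased spleen, 30.9 and 15.5 CPM in wild-type spleen 1, 30.6 and 20.9 CPM in wild-type spleen 2, 24.6 and 14.7 CPM in knockout spleen 1 and 18.9 and 5.69 CPM in knockout spleen 2.

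Between T-rich and B-rich spots 1 of the 6 genes, Ccr7, was higher in T-rich spots, 4 were higher in B-rich spots, and Ltb did not pass. Of 18289 genes, 8.74% passed, 4.93% higher in T-rich and 3.81% higher in B-rich spots. Cxcl13 had 240 CPM in B-rich and 77.7 CPM in T-rich spots of the purchased spleen, 19.4 and 15.6 CPM in wild-type spleen 1, 12.6 and 3.17 CPM in wild-type spleen 2, 34.2 and 15.0 CPM in knockout spleen 1 and 62.3 and 13.6 CPM in knockout spleen 2. B-rich spots were above T-rich spots in each of the 5 spleens, least so in wild-type spleen 1, and wild-type spleen 2 rests on 12 and 3 counts. The log2 difference, T-rich minus B-rich, was -1.47 (SE 0.18, adjusted p 2.8e-05).

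Cxcr5, the receptor for Cxcl13, went the same way. It had 430 CPM in B-rich and 206 CPM in T-rich spots of the purchased spleen, 459 and 265 CPM in wild-type spleen 1, 379 and 172 CPM in wild-type spleen 2, 399 and 153 CPM in knockout spleen 1 and 373 and 110 CPM in knockout spleen 2. No T-rich value reached a B-rich value, and the log2 difference was -1.23 (SE 0.10, adjusted p 5.9e-07). Lymphocyte-poor spots had 113 to 178 CPM of Cxcr5, less than the T-rich spots of the purchased and wild-type spleens and more than those of both knockout spleens.

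Ccr7 went the opposite way. It had 277 CPM in T-rich and 164 CPM in B-rich spots of the purchased spleen, 209 and 195 CPM in wild-type spleen 1, 371 and 172 CPM in wild-type spleen 2, 272 and 114 CPM in knockout spleen 1 and 378 and 154 CPM in knockout spleen 2. T-rich spots were higher in all 5 spleens and no T-rich value fell as low as a B-rich one, although wild-type spleen 1 showed little separation. The log2 difference was 0.88 (SE 0.13, adjusted p 1.7e-04).

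Madcam1 was lower in T-rich spots, with a log2 difference of -0.93 (SE 0.15, adjusted p 5.1e-04) and 15.7 to 23.7 CPM in T-rich against 22.1 to 47.4 CPM in B-rich spots. The 2 ranges overlap across spleens, while within each spleen the B-rich value was the higher. Lta was lower in T-rich spots by a smaller step, -0.52 (SE 0.10, adjusted p 0.0019), at 25.6 to 37.0 CPM against 35.0 to 56.3 CPM. Without the purchased spleen the step of Lta was -0.43 and its adjusted p 0.0503. Ltb had 772 to 1513 CPM in T-rich and 851 to 1541 CPM in B-rich spots, with a log2 difference of -0.12 (SE 0.07, adjusted p 0.43). Lymphotoxin beta is made by B cells and T cells alike, and lymphotoxin alpha chiefly by activated lymphocytes.

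**Figure D3:**
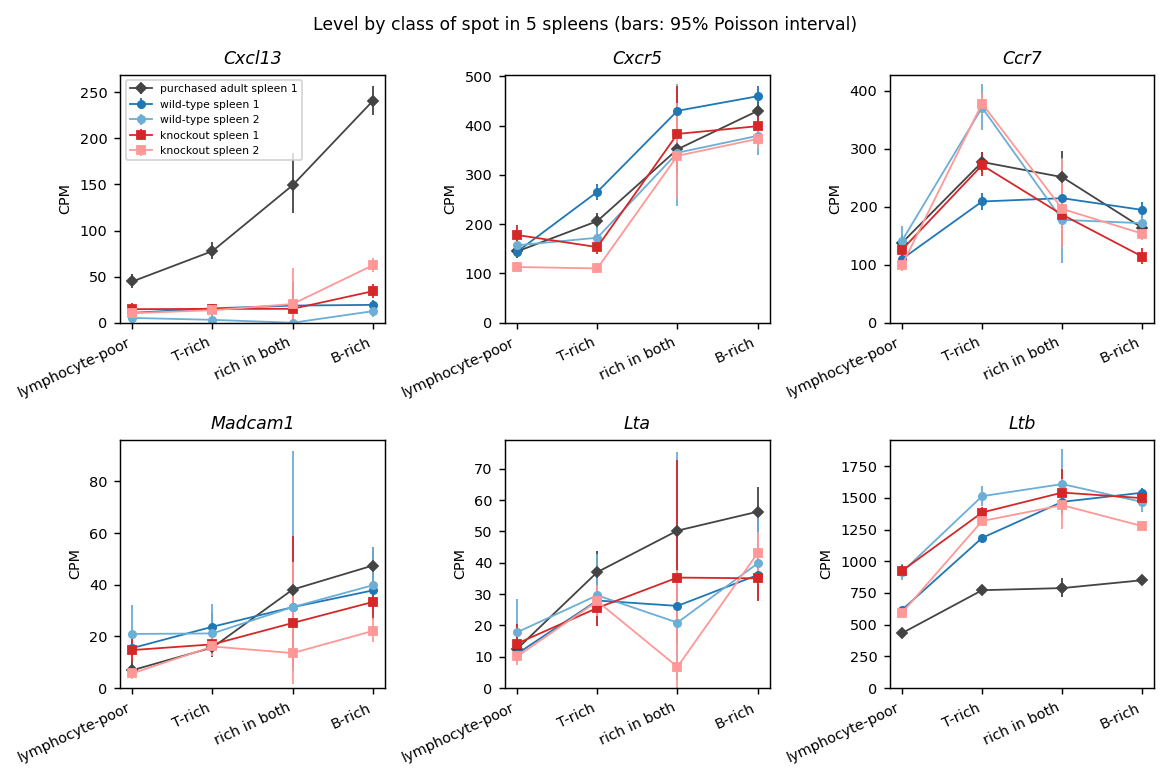
Level of each of the 6 genes in classes of spot within the 5 spleens, in CPM on axes that start at 0, 1 line or point per spleen with bars for the 95% Poisson interval. Cxcl13 and Cxcr5 peak in B-rich spots, Ccr7 peaks in T-rich spots, and Ltb is at similar levels in both and lower in lymphocyte-poor spots.

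Single spots were also compared without classes. For each spleen the Pearson correlation r was taken over its passing spots between the log2 level of a gene and that of Cd79a and Ms4a1 together (B-cell genes) or Cd3e and Lck together (T-cell genes). Spots share their library, their depth and their neighbours, so r is given as a description. Cxcr5 had a mean r of 0.489 with B-cell genes (SD 0.153 over 5 spleens, range 0.241 to 0.639) and of -0.098 with T-cell genes. Cxcl13 had 0.432 with B-cell genes in the purchased spleen, 0.090 in wild-type spleen 1, 0.054 in wild-type spleen 2, 0.160 in knockout spleen 1 and 0.333 in knockout spleen 2, with a mean of 0.214, against -0.041 with T-cell genes. The lowest and the highest r of Cxcl13 belong to the sections with the fewest (27) and the most (1838) counts of it.

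Ccr7 was alone among the 6 in a higher mean r with T-cell genes, 0.325 (SD 0.124, range 0.212 to 0.523), than with B-cell genes, -0.023 (range -0.221 to 0.343). The 0.343 came from wild-type spleen 1, where the B-cell and T-cell genes were themselves correlated at 0.266 and Ccr7 had 0.260 with T-cell genes. In the other spleens B-cell and T-cell genes had r of 0.005, -0.277, -0.414 and -0.366. Ltb was correlated with both, at 0.367 with B-cell and 0.238 with T-cell genes. Madcam1 (0.155 and -0.007) and Lta (0.145 and 0.042) had weak values, and in counts this sparse they carry little weight. Depth matters to the size of r: with each spot thinned to 2000 counts, the mean r of Cxcr5 with B-cell genes was 0.222 and that of Ccr7 with T-cell genes 0.151, over 968 to 1422 spots per spleen. Neighbouring spots matter too: when each spot was taken as its deviation from the adjacent spots, these means were 0.196 and 0.061. That of Cxcl13 with B-cell genes was then 0.078, with values just below 0 in both wild-type spleens of the cross (-0.032 and -0.0033).

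**Figure D4:**
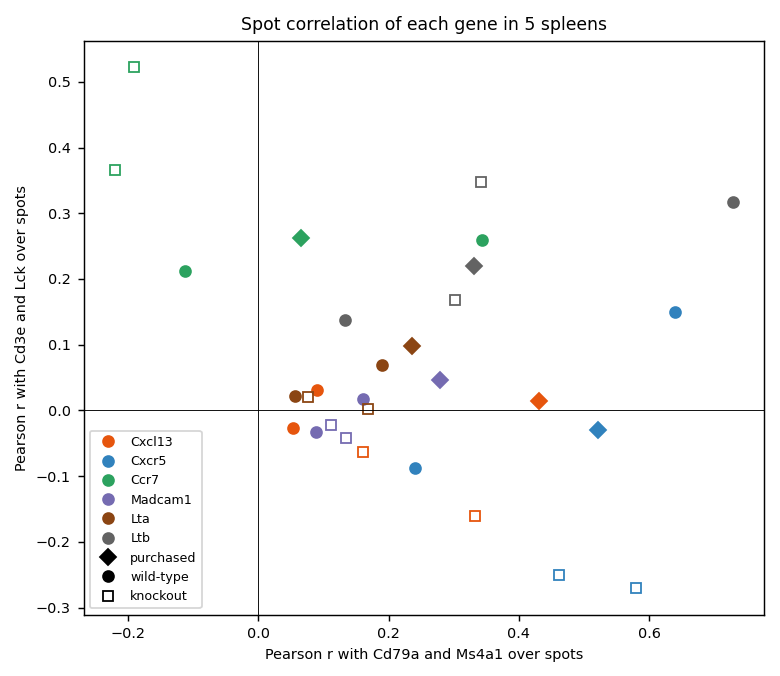
Pearson r of each gene over spots with the B-cell genes (horizontal axis) and with the T-cell genes (vertical axis), 1 point per gene and spleen. Cxcr5 lies far to the right, with a mean of 0.489, Ccr7 lies at the top, with a mean of 0.325, and Madcam1, Lta and most points of Cxcl13 lie near the centre.

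Among the 8068 genes detected in at least 5% of passing spots of each spleen, the 3 with the highest mean r with each of the 6 genes were found. For Cxcl13 they were Cr2 (0.241), the complement receptor of B cells and follicular dendritic cells, Mfge8 (0.231), a bridging protein made by follicular dendritic cells, and Cd37 (0.209), a tetraspanin of B cells. For Cxcr5 they were Cr2 (0.469), Cd79a (0.445) and Ms4a1 (0.439), the last 2 being genes of the B-cell receptor complex and CD20. The T-cell receptor constant genes Trbc2 (0.328) and Trac (0.319) and the T-cell gene Ms4a4b (0.295) led for Ccr7. Mfge8 and Cr2 also led for Madcam1 (0.190 and 0.176, then Enpp2 at 0.166, the enzyme that makes lysophosphatidic acid) and for Lta (0.159 and 0.154, then Clu at 0.153). For Ltb they were Cd52 (0.453), a lymphocyte surface glycoprotein, the translation factor gene Eef1a1 (0.446) and Mfge8 (0.440). Every one of these was positive in 5 of 5 spleens.

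Madcam1 was followed across the edge of what are here called white-pulp spots. These were the third of passing spots with the highest summed share of the 4 lymphocyte genes, most of which came from the B-cell genes. Border spots lay 1 array step from the edge on either side. Inner spots lay 2 or more steps inside it and outer spots 2 or more outside. In the knockout spleens Cd3e had 333 and 350 CPM 2 steps outside against 170 and 251 CPM 1 step inside. In the purchased and wild-type spleens it was lower 2 steps outside than 1 step inside. The edge is thus mainly that of B-cell-dense spots, and outer spots are not red pulp alone. Madcam1 just inside the edge was at 41.2 CPM in the purchased spleen, 32.2 CPM in wild-type spleen 1, 33.7 CPM in wild-type spleen 2, 33.8 CPM in knockout spleen 1 and 21.2 CPM in knockout spleen 2. Just outside it was at 18.3, 19.9, 25.6, 18.5 and 15.0 CPM in the same order, and in outer spots at 5.04, 14.1, 11.2, 13.6 and 9.52 CPM. These 3 zones fell in the same order in each of the 5 spleens, while beyond the first step outside the edge the single steps, with few counts, were not in order in every spleen.

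Inner spots were few, 14 to 77 per spleen, and had 41.5 CPM of Madcam1 in the purchased spleen, 51.8 CPM in wild-type spleen 1, 27.0 CPM in knockout spleen 1 and 31.0 CPM in knockout spleen 2, with 0 counts in the 14 inner spots of wild-type spleen 2. The border over inner ratio was -0.63 on the log2 scale (SD 0.38, range -1.02 to -0.14, 4 spleens). Taken alone, the first step inside the edge was above the inner spots in knockout spleen 1, where the inner spots held 5 counts, and in wild-type spleen 2, about equal to them in the purchased spleen, and below them in the other 2. Marco, a macrophage receptor of the marginal zone, had a border over inner log2 ratio of 0.88, 0.87 and 1.08 in the purchased and wild-type spleens and of -0.47 and -0.66 in the knockout spleens, from 71, 164, 2, 32 and 83 counts in inner spots in that order. The value of wild-type spleen 2 rests on the 2 counts. Of the other marginal-zone macrophage markers, Siglec1 did not repeat this split in wild-type spleen 1. It had 15.3 and 19.4 CPM there just outside and inside the edge against 19.6 CPM 2 steps inside. Elsewhere it had 0 to 5 counts 2 steps inside. Cd209b went as Marco did in the purchased spleen, wild-type spleen 1 and knockout spleen 2. In the same order of positions, it had 23.7, 32.3 and 25.5 CPM in wild-type spleen 2 and 23.7, 27.9 and 27.0 CPM in knockout spleen 1. The inner values of these 2 spleens lie between their edge values and rest on 1 and 5 counts, too few to place them.

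**Figure D5:**
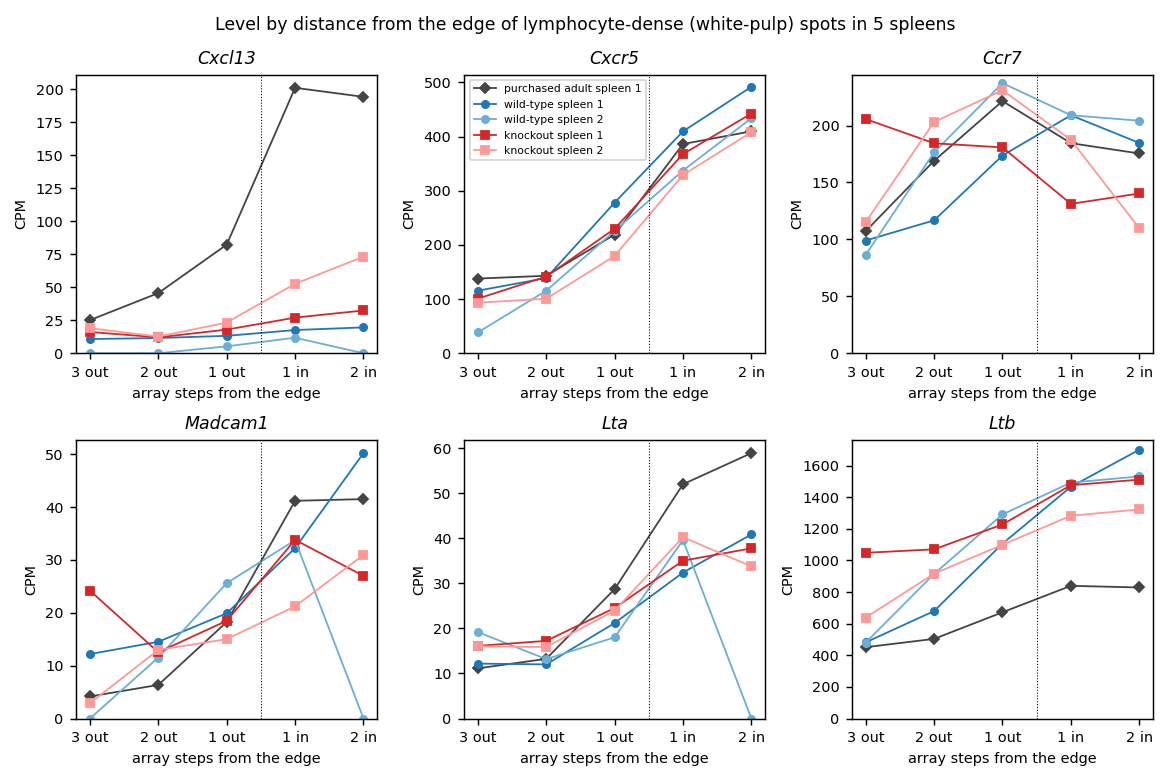
Level in CPM, on axes that start at 0, by array steps from the edge of the lymphocyte-dense spots, from outside (left of the dotted line) to inside (right), 1 line per spleen. Cxcl13 and Cxcr5 are higher just inside the edge than just outside it, and in each spleen Madcam1 is higher at the first step inside the edge (21.2 to 41.2 CPM) than at the first step outside (15.0 to 25.6 CPM).

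The knockout was compared with the wild type in spleen, 2 sections each, which asks whether loss of complement C1q came with a change in these genes. With 2 against 2 an exact permutation test cannot go below p = 0.333, so the edgeR fit over 18895 genes was used, in which 20.6% of genes passed and 13.8% were higher in the knockout. Higher calls made up 67% of all calls there, 86.2% with DESeq2 and 21.4% with upper-quartile factors, which moved the median of all genes from -0.082 to -0.37. Cxcl13 was the only one of the 6 that passed, a count near the 20.6% of all genes that passed. Its level was 10.3 ± 5.49 CPM in the wild-type and 25.1 ± 7.54 CPM in the knockout spleens (mean ± SD, n = 2), a log2 difference of 1.44 (SE 0.28, adjusted p 0.0017), and both knockout values were above both wild-type values. The purchased wild-type spleen, from a separate set of sections and not part of this test, had 120 CPM, above both knockouts. Upper-quartile factors gave 1.13 (adjusted p 6.1e-04). DESeq2 gave 1.60 with an adjusted p of 0.062, and without knockout spleen 2 the difference was 0.97 with an adjusted p of 0.135, in a fit that called 240 genes. Without wild-type spleen 1, which left the shallow wild-type spleen 2 with its 27 counts as the only wild type, the difference was 2.26.

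Several marker lists also differed between the genotypes without overlap. Such separation is the outcome to which an exact permutation test of 2 against 2 sections gives p = 0.333. The share of all genes that separate in this way was not computed. Summed over the whole list, 5 of 5 neutrophil markers were detected in each section and came to 572 and 485 CPM in the wild-type and 53.3 and 111 CPM in the knockout spleens. The 6 acinar markers of the pancreas, an organ that lies against the spleen, came to 45.8 and 538 CPM in the wild-type and 2313 and 16601 CPM in the knockout spleens. Without the 29, 30 and 41 spots rich in acinar genes in wild-type spleen 2, knockout spleen 1 and knockout spleen 2, the Cxcl13 difference was 1.45. The 4 dendritic cell markers came to 169 and 138 CPM against 201 and 177 CPM. The 4 red-pulp macrophage markers came to 1490 and 795 CPM against 726 and 750 CPM. Those of lymphatic endothelium came to 59.2 and 59.2 CPM against 45.7 and 36.0 CPM. Low sums of intestinal (36.3 and 32.7 against 30.8 and 27.7 CPM) and hepatocyte markers (23.5 and 27.2 against 16.9 and 12.8 CPM) also separated. The genotypes overlapped for the 8 B-cell markers, at 5687 and 5057 CPM against 6731 and 5626 CPM, and for the 4 erythroid markers, at 11191 and 2583 CPM against 1356 and 3044 CPM. Except for the acinar spots, their part in the result was not tested.

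The difference in Cxcl13 was looked for by spot class after the data had been seen. In B-rich spots alone it was 1.73 (adjusted p 3.5e-06), in T-rich spots 0.49 (adjusted p 0.43) and in lymphocyte-poor spots 0.70 (adjusted p 0.17). The difference between B-rich and T-rich spots was itself fitted, a comparison in which 0.308% of 18180 genes passed, and for Cxcl13 it was -1.31 (SE 0.39, adjusted p 0.196), T-rich minus B-rich, which did not pass. The same term was -0.62 (SE 0.17, adjusted p 0.148) for Cxcr5 and 0.80 (SE 0.22, adjusted p 0.152) for Ccr7. Without wild-type spleen 2 these 3 terms were -1.56, -0.82 and 1.15, and without wild-type spleen 1 that of Cxcl13 was 0.15. Without knockout spleen 1 it was -1.68. Each of these fits leaves 1 section in a genotype, so only the size of the term is given. Wild-type spleen 1 is the spleen in which B-rich and T-rich spots differed least in Cxcl13 and Ccr7.

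For the other 5 genes no difference between genotypes passed in spleen. Lta had 23.6 ± 0.786 CPM in the wild-type and 26.5 ± 0.231 CPM in the knockout spleens (mean ± SD, n = 2), a log2 difference of 0.44 (SE 0.18, adjusted p 0.085). Ltb had 1193 ± 128 and 1174 ± 138 CPM and a log2 difference of 0.23 (SE 0.20, adjusted p 0.39). For Ccr7 the levels were 191 ± 34.4 and 183 ± 23.7 CPM (log2 difference 0.21, SE 0.19, adjusted p 0.39) and for Cxcr5 265 ± 30.8 and 232 ± 34.1 CPM (0.06, SE 0.17, adjusted p 0.82). Madcam1 had 24.7 ± 1.26 and 19.1 ± 4.49 CPM and a log2 difference of -0.12 (SE 0.19, adjusted p 0.65). The sign of the fitted difference is opposite to that of the CPM means for Ltb, Ccr7 and Cxcr5, and the fit scales the libraries by TMM factors. With upper-quartile factors all 3 signs turned.

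In fetal liver 0% of 18986 genes passed between genotypes in edgeR, while 138 had an unadjusted p below 0.05 and DESeq2 called 12. The log2 differences of the 6 genes ranged from -0.29 for Ltb (SE 0.68) to 0.72 for Madcam1 (SE 0.76), all with an adjusted p of 1.00. With the litter as a block (wild-type and knockout fetal livers of the same number are littermates) 157 genes were called and none of the 6, whose adjusted p was 0.92 or more. The genotype effect in spleen less that in fetal liver passed for 0% of 19180 genes, while 2018 had an unadjusted p below 0.05 and DESeq2 called 8. For Cxcl13 it was 1.55 (SE 0.89, adjusted p 0.47). With the replicate block 1409 genes were called and none of the 6, and Cxcl13 had 1.54 (SE 0.58, adjusted p 0.089). The effect in spleen is therefore not shown to differ from that in fetal liver.

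A list of 33 other genes of lymphotoxin signalling, stromal adhesion and lymphocyte homing gives the setting. Between lymphocyte-rich and lymphocyte-poor spots 17 rose and 6 fell, where 14.3% of all genes rose and 1822 of 18493 fell, with a median log2 difference of 0.42 against 0.033 over all genes. Among those that rose were Cr2 by 1.28 (adjusted p 1.4e-05), S1pr1 by 0.79 (adjusted p 2.1e-05), the receptor by which lymphocytes leave tissue, and Itgb7 by 0.70 (adjusted p 1.9e-05), a chain of the integrin that binds the product of Madcam1. Among those that fell were the chemokine Cxcl12 by 1.32 (adjusted p 3.9e-07), the adhesion molecule Vcam1 by 1.20 (adjusted p 7.8e-07) and Tlx1 by 1.01 (adjusted p 1.4e-05), a transcription factor needed for spleen formation.

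Of the same 33 genes, 5 were higher in T-rich and 5 in B-rich spots, against 4.93% and 3.81% of all genes. Itgb7 (0.83, adjusted p 7.7e-05) and the tumour necrosis factor receptors Tnfrsf1b (0.56, adjusted p 1.5e-04) and Tnfrsf1a (0.44, adjusted p 5.2e-04) were higher in T-rich spots. Cr2 (-1.75, adjusted p 2.4e-07), Tnfrsf13c (-1.08, adjusted p 1.9e-07), the receptor for the B-cell survival factor BAFF, and the chemokine receptor Ccr6 (-0.94, adjusted p 3.8e-07) were higher in B-rich spots. The median was 0.12 against -0.027 over all genes.

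In wild-type spleen against wild-type fetal liver 20 of the 33 were higher and 1 lower, where 25.1% of all genes were higher, with a median of 2.09 against 0.037. They included Cr2 by 6.59 (adjusted p 0.0012), Ccr6 by 6.25 (adjusted p 5.8e-04), Gpr183 by 4.28 (adjusted p 0.0017), a receptor that positions B cells, the non-canonical NF-kappa B kinase gene Map3k14 by 3.69 (adjusted p 0.0013), Tnf by 3.37 (adjusted p 0.0013) and the NF-kappa B subunit gene Relb by 2.84 (adjusted p 0.0017). In the knockout spleens 8 rose and 1 fell, where 13.8% of all genes rose, with a median of 0.19 against -0.082. With upper-quartile factors 3 rose and 4 fell, where 1197 of 18895 genes rose and 4400 fell, with a median of -0.098 against -0.37, so the 3 that rose lie near the share of all genes. Those that rose included Cr2 by 1.47 (adjusted p 9.1e-04), Cxcr4 by 0.85 (adjusted p 0.0016), the adhesion genes Icam1 by 0.85 (adjusted p 0.0025) and Vcam1 by 0.64 (adjusted p 0.018), Gpr183 by 0.57 (adjusted p 0.022) and Traf3 by 0.57 (adjusted p 0.018), an inhibitor of the non-canonical route. Vcam1, Gpr183 and Traf3 kept a positive difference but did not pass with upper-quartile factors (adjusted p 0.103, 0.176 and 0.143). None of the 33 passed between genotypes in fetal liver, in the difference of genotype effects between tissues or in that between T-rich and B-rich spots. Of all genes 0%, 0% and 0.308% passed there, so the absence of calls is no trait of the list.

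Cr2, the gene most like Cxcl13 over spots, had 530 and 246 CPM in the wild-type and 921 and 885 CPM in the knockout spleens, and 1050 CPM in the purchased spleen. As for Cxcl13, the lowest level was that of wild-type spleen 2 and the purchased wild-type spleen lay above both knockouts. The purchased spleen belongs to a separate set, with 32589 features against 19465 in the cross. Its olfactory receptor genes had a 90th percentile of 0.458 CPM against 3.83 to 8.68 CPM in the cross spleens. It is therefore no matched control for the knockouts.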

How the data were processed

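The 14 sections were formalin-fixed and assayed with the Visium probe kit. The authors made the deposited counts, unique molecular identifiers (UMIs) per gene and spot, with Space Ranger on mm10, per the submitters' processing notes. The tables were used as deposited, with 32589 features for the purchased sections and 19465 for the cross.

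Spots over tissue with at least 1000 genes were kept, after the study's own minimum, and summed per section, which is the replicate. Summed counts were tested with edgeR 4.0.16 (TMM factors, quasi-likelihood F test, R 4.3.3) and Benjamini-Hochberg adjustment over all genes tested at 0.05, with DESeq2 1.42.0 as the alternative. Comparisons of spot classes had the section as a block. Fits were tested on simulated data. The labels number the sections and do not name the animals, so p-values measure the spread between sections. Spot values were log2(6000 × count / UMIs of the spot + 1). Intervals are exact Poisson intervals at 95%, which cover counting error only, and 0 counts allow up to 3 counts. Replicates within each group of the cross differed by more than counting noise, and other pairs of sections were not compared.

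The 8 genes and all lists were chosen with earlier results of these data known. Named beside them are C1qa, the 3 genes with the highest mean r, and up to 6 genes of the list of 33 with the smallest adjusted p. Cr2 levels, Marco, Siglec1, Cd209b and the spot classes within a genotype were added after values were seen. By the study's supplementary legends, wild-type and knockout fetal livers of the same number are littermates from one pregnant mouse, and numbers 2 and 4 are different litters. Same-numbered livers deviated together from their group means (r = 0.64 over 19068 genes). No protein sequence was used here. Other settings were upper-quartile factors, no filter on low counts, all in-tissue spots, leaving out sections and subsets of spots.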

Additional observations from a re-analysis of the deposited data

How the results depend on the processing

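For spleen genotype 3886 genes were called. Leaving out each section gave 240 to 4972, lymphocyte-rich spots 2425, and spots chosen after seeing the data 1898 (B-rich) and 914 (T-rich). Upper-quartile factors gave 5597, mostly lower in the knockout. Same-numbered spleens share only a number (r = 0.057 over 18743 genes). With the replicate block 4968 genes were called and Cxcl13 was 1.43. In fetal liver no gene was called. DESeq2 gave 12, the replicate block for litter 157 and spots with hepatocyte genes 1, and leaving out sections 0 to 109. For the difference between tissues DESeq2 gave 8, the replicate block 1409 and leaving out sections 0 to 2, and none of the 6 genes was called by any of these. Spleen against fetal liver gave 9212 calls, 3626 between knockout tissues and 1656 to 11031 without single sections. T-rich against B-rich spots gave 1598, and 1008 with DESeq2. The class by genotype term gave 56, 1 with DESeq2 and 5 to 1109 without single sections.

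Some differences, none of them called with all sections, changed sign, and the cause was not tested. In spleen genotype, upper-quartile factors gave Cxcr5 -0.23, Ccr7 -0.086 and Ltb -0.053, Cxcr5 was -0.13 in lymphocyte-rich and -0.55 in T-rich spots, and Ccr7 was -0.24 in B-rich spots. Leaving out sections gave Cxcr5 -0.067 to 0.18, Ccr7 -0.0405 to 0.40 and Madcam1 -0.29 to 0.0199. In fetal liver, Cxcl13 was 0.30 with upper-quartile factors and 0.24 in spots with hepatocyte genes. Leaving out sections there gave Cxcl13 -1.24 to 0.55, Ccr7 -0.41 to 0.79, Madcam1 -0.37 to 1.43, Lta -0.30 to 0.54 and Ltb -0.83 to 0.64. For the difference between tissues, DESeq2 gave Ccr7 0.0255, and upper-quartile factors Lta -0.37 and Ltb -0.055. Leaving out sections gave Cxcr5 -0.80 to 0.055, Ccr7 -0.59 to 0.63, Madcam1 -1.59 to 0.27, Lta -0.11 to 0.74 and Ltb -0.37 to 1.06. For the class by genotype term the ranges were -1.68 to 0.15 for Cxcl13, -0.23 to 0.27 for Madcam1 and -0.051 to 0.32 for Ltb. As a deviation from adjacent spots, the mean r of Lta with T-cell genes was -0.0097.

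Of the refitted differences of the 6 genes, 438 kept direction and side of the threshold, 32 changed sign, 8 passed newly and 8 no longer passed. Where a section was left out and 1 stayed in a group, that one is assumed to vary like the others. All 6 stayed higher in lymphocyte-rich spots in 13 of 13 alternatives, and 5 of 6 had a higher mean r with B-cell genes in all 10. Wild-type spleen 2 holds 27 counts of Cxcl13, which limits the spleen comparison of that gene.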
